A study of Gallus gallus with 24 samples.

Results

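Gene expression in the left ventricle of the normal chick embryo was compared between embryonic day 10 (E10) and embryonic day 8 (E8). The comparison rests on 4 of the 24 arrays of the series, which the labels name as the 2 arrays of the pool of E10 left ventricles and the 2 arrays of the pool of E8 left ventricles. It takes in 38439 of the 38535 probe sets on the array, all but the 96 controls. The series asked how expression changes in normal and in surgically altered ventricular myocardium. Tissue of 6 to 12 specimens was combined before RNA was isolated, and the labelled RNA was divided over 2 one-colour oligonucleotide arrays. The 2 arrays of a pool are therefore technical duplicates, and each condition has n = 1. Of the other 10 pools, those of right ventricles at E10 and at E8 share no array with the left pools and are set beside them below. The rest were left ventricles at E6, right ventricles at E6, both ventricles together at E6, E5 and E4, both ventricles at E5 after conotruncal banding (a band tied around the vessel that leaves the heart), and left and right ventricles at E8 after partial ligation of the left atrium. Both operations were made in the egg on day 4. The titles of both left pools name no operation, and both were taken as normal, though only the titles of the other unoperated pools carry that word. A pool of dissected ventricle holds muscle, endocardium, epicardium, vessels and blood together.

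Between these ages the wall of the chick left ventricle changes from one made mostly of trabeculae, the muscular ridges that line the lumen, to one with a thickening compact layer and a growing coronary circulation. Signals of the BMP, Wnt, Notch, FGF and neuregulin families, exchanged among endocardium, myocardium and epicardium, are known to govern trabecular growth and wall thickening. In the blood of the chick embryo, primitive red cells that carry embryonic globins give way to definitive red cells over the same period.

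The deposited values are on a log2 scale. Probe sets whose 12 pool means all lay below 4.09, the 50th percentile of the table, were set aside as dim, which left 20335. The 24 array medians lay between 4.03 and 4.15. The SD between duplicate arrays over kept probe sets was 0.121 in the E10 left pool and 0.124 in the E8 left pool, against 0.107 to 0.159 over all pools. Duplicate arrays stood at least 2-fold apart at 38 probe sets in the E10 left pool and at 37 in the E8 left pool. The actin control read 0.26 higher at its 3′ end than at its 5′ end (log2) in the E10 left pool and 0.39 in the E8 left pool. In the 4 pools of both ventricles this gap lay between 0.17 and 0.33, and in the other pools of 1 ventricle between 0.34 and 0.43. The GAPDH gap was -0.26 in the E10 left pool and -0.25 in the E8 left pool, and the EF1A gap 0.12 and 0.19. In the pools of both ventricles GAPDH lay between -0.32 and -0.24 and EF1A between 0.10 and 0.21. In the other pools of 1 ventricle they lay between -0.365 and -0.25 and between 0.09 and 0.20. Neither control separated the kinds of pool. Kinds of pool were also compared at E6. What is called here the E6 pool difference is the level in the E6 pool of both ventricles minus the mean of the left and right E6 pools. It rests on 1 pool of both ventricles, so the kind of pool cannot be told apart from what that pool held. The E6 pool difference uses no array of E8 or E10. By it, 339 kept probe sets (1.67%) were at least 2-fold lower, and 354 (1.74%) at least 2-fold higher, in the pool of both ventricles.

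Of the 20335 kept probe sets, 703 (3.46%) stood 2-fold or more apart in the E10 and E8 left pools, with duplicate arrays that did not overlap. With 1 pool a condition this count carries no test, and in whole ventricle a lower level can mean fewer cells of a type or less RNA per cell, which cannot be told apart. At E10, 250 probe sets were higher (1.23%) and 453 were lower (2.23%). Differences of at least 4-fold numbered 119 (0.585%), of which 36 were higher (0.177%) and 83 lower (0.408%). The median over all kept probe sets was 0.02, and 17648 of them (86.8%) moved by less than 0.5 on the log2 scale. Of the counted probe sets, 536 name 1 gene, 3 name several and 164 are unnamed here; the named ones stand for 162 genes with a higher and 297 genes with a lower probe set. The smallest differences counted were 1.0025 upward and -1.0019 downward, and 180 probe sets with separate duplicates lay between 0.9 and 1 and were not counted. Of the 250 higher probe sets, 74 lay below the filter level of 4.09 at E8, and 96 of the 453 lower ones lay below it at E10, where the size of a difference depends on the floor of the array. Of the higher probe sets 21 reached 4.09 in no pool but the E10 or E8 left pool, so they were kept only through the difference itself, and this held for none of the lower ones. Of 270 counted genes with several kept probe sets, all of a gene's probe sets were counted in 40, and none had probe sets counted in both directions.

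Most of the genes with the widest increases lay near or below the filter level at E8, so the size of their differences depends on the floor of the array. COL8A1, a short-chain collagen of vessel walls and of the subendothelial matrix, read 7.22 and 7.69 on the E10 arrays, against 3.70 and 3.13 on the E8 arrays. Its difference was 4.04 on the log2 scale, and 3.36 when values below the filter level were raised to it. Under that setting ALB, at 3.46, moved further. COL8A1 has 3 probe sets on the array, and only the 1 read here reached the filter level in any pool. MGP, the matrix Gla protein that inhibits calcification of vessels and cartilage, stood well above the filter at both ages, with 9.34 and 9.48 at E10 against 6.60 and 6.32 at E8. Its difference was 2.95 on the log2 scale.

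TXLNB, the muscle form of taxilin, read 6.22 and 6.16 at E10, against 2.71 and 2.73 at E8. ABCB1, the efflux pump P-glycoprotein, read 6.22 and 5.92 at E10, against 2.79 and 2.62 at E8, and both of its probe sets were counted. Both genes lay below the filter level at E8 and clearly above it at E10. NMNAT3, which makes NAD in mitochondria, read 5.72 and 6.17 at E10, against 2.65 and 2.61 at E8. CPXM2, a protein of the carboxypeptidase family, read 5.18 and 5.09 at E10, against 1.75 and 1.66 at E8, and both of its probe sets were counted. RPH3A, rabphilin, which acts in vesicle release, read 5.65 and 5.17 at E10, against 2.46 and 2.47 at E8. ALB and TTR, also among the 10 genes with the widest increases, encode plasma proteins and are described with the blood genes. The probe sets of CPXM2, NMNAT3 and RPH3A read here reached the filter level in no pool but the E10 left pool and so were kept only through the difference itself. With values below the filter level raised to it, their differences were 1.04, 1.85 and 1.32, and those of TXLNB, ABCB1 and TTR 2.09, 1.97 and 2.02. In all 9 genes both E10 arrays lay above both E8 arrays, as the counting rule requires. A pair of unnamed probe sets, picked here after their values were seen, moved as far: the first read 6.68 and 6.80 at E10, against 2.26 and 2.27 at E8, and the second averaged 9.47 at E10, against 5.40 at E8.

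**Figure D1:**
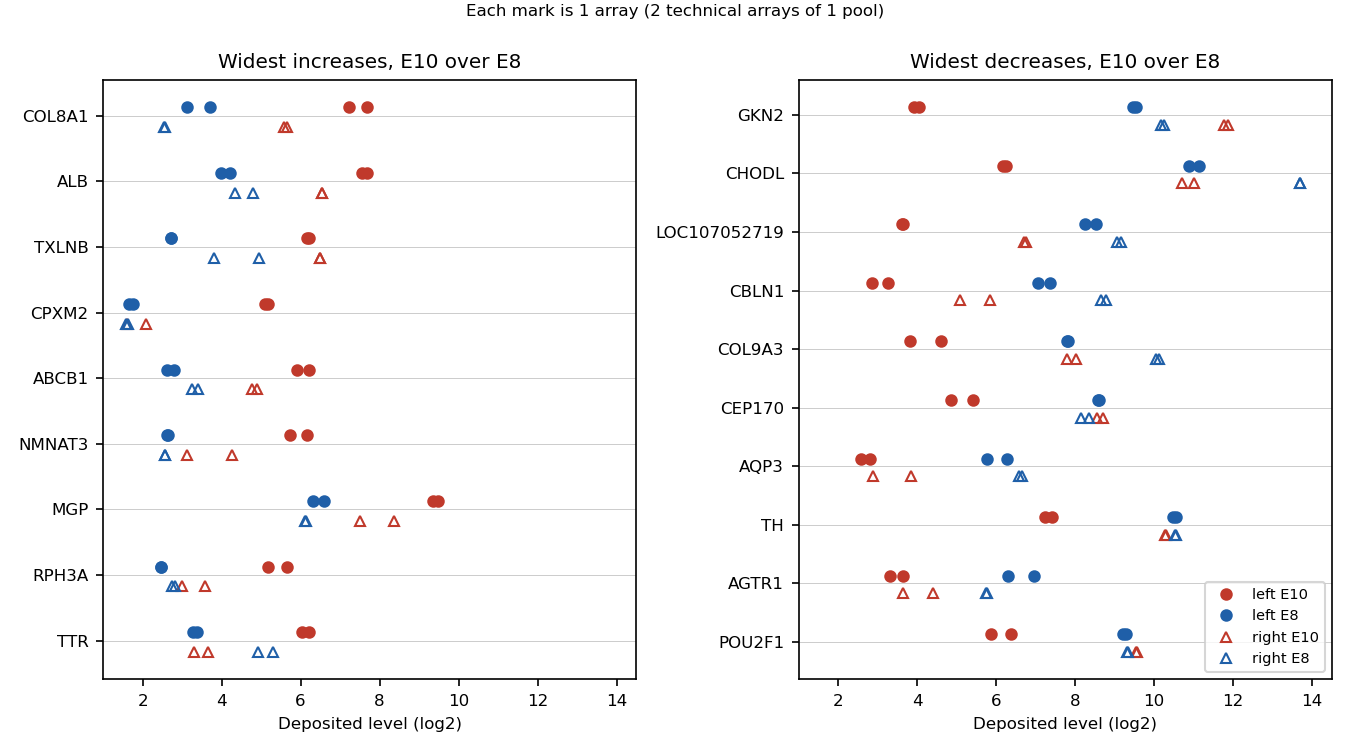
Deposited log2 level on each array (horizontal axis) for 9 of the 10 genes with the widest increase (left panel) and the 10 with the widest decrease (right panel) in the left ventricle. Filled circles are left arrays and open triangles right arrays, E10 in red and E8 in blue, with 2 technical arrays a pool. In every row the filled red and filled blue circles are apart, as the counting rule requires. The right arrays of CEP170, TH and POU2F1 at E10 lie close to those at E8, and those of GKN2 lie above them.

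The few widest decreases exceeded the widest increases, and several came from levels far above the filter, while the median of all counted probe sets was -1.33 for the lower and 1.32 for the higher ones. GKN2, gastrokine 2, known as a secreted protein of the stomach lining, read 3.91 and 4.06 on the E10 left arrays, against 9.45 and 9.53 on the E8 left arrays, a level 45.5-fold lower. The E10 left pool was alone in this: GKN2 stood between 9.03 and 11.82 in each of the other 11 pools. CHODL, chondrolectin, a membrane lectin, read 6.17 and 6.25 at E10, against 10.88 and 11.13 at E8, and its second probe set was lower as well. CBLN1, cerebellin, a secreted organiser of synapses, read 2.86 and 3.26 at E10, against 7.35 and 7.05 at E8. COL9A3, a chain of cartilage collagen IX, read 4.60 and 3.81 at E10, against 7.81 and 7.78 at E8, and its second probe set was lower too. Both E10 arrays lay far below both E8 arrays in all of these genes, which were chosen for wide differences without overlap.

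AQP3, a channel for water and glycerol, read 2.57 and 2.81 at E10, against 6.27 and 5.76 at E8, and AGTR1, the angiotensin II receptor, 3.30 and 3.64 at E10, against 6.31 and 6.96 at E8. At E10 both genes lay below the filter level, whereas both were clearly above it at E8. The other 4 of the 10 widest decreases also differed between the kinds of pool at E6. TH, tyrosine hydroxylase, the rate-limiting enzyme of catecholamine synthesis, read 7.40 and 7.22 at E10, against 10.55 and 10.47 at E8, with an E6 pool difference of -1.59. POU2F1, the transcription factor Oct-1, read 6.39 and 5.87 at E10, against 9.20 and 9.27 at E8, with an E6 pool difference of -2.42. CEP170, a protein of the centrosome, read 5.41 and 4.86 at E10, against 8.57 and 8.61 at E8, with an E6 pool difference of -1.70, and the other 5 of its 6 kept probe sets were not counted. LOC107052719 read 3.65 and 3.61 at E10, against 8.24 and 8.52 at E8, with an E6 pool difference of -2.70. It also varied widely among the other pools. It averaged 3.63 in the banded E5 pool, 3.88 in the ligated left E8 pool and 10.26 in the ligated right E8 pool. The part of the kind of pool in these 4 differences was not tested.

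Growth factor signalling held more counted decreases than any other list. Of its 51 kept probe sets, standing for 29 of 34 genes, 11 were lower at E10 in the left ventricle (of 9 genes) and 0 were higher, beside 2.23% and 1.23% of all kept probe sets. Its median change was -0.22, against 0.02 over all kept probe sets, and its range -2.70 to 0.71. Like the other lists, it was chosen with earlier results of these data known, so its share of decreases is described and not tested. BMP10, a ligand made by heart muscle that sustains trabecular growth in the mouse, read 9.07 and 8.88 at E10, against 11.70 and 11.65 at E8. Its level was 6.49-fold lower at E10. WNT11, a ligand of non-canonical Wnt signalling in heart development, read 4.82 and 4.55 at E10, against 7.33 and 7.14 at E8. In these probe sets of BMP10 and WNT11 both arrays at E10 were thus more than 2 log2 units below both arrays at E8. The second kept probe set of WNT11 differed by -0.71 and was not counted. RSPO3, which strengthens Wnt signals, read 6.29 and 6.15 at E10, against 8.37 and 8.20 at E8, and its second kept probe set differed by -0.85, not counted. BMP2, a ligand known from cushion and valve formation, read 6.12 and 5.98 at E10, against 7.91 and 7.82 at E8. JAG1, a Notch ligand, was lower in both kept probe sets, with differences of -1.92 and -1.32, and BMP5 was lower in 1 of 2 probe sets, with a difference of -1.22. The JAG1 probe set with -1.32 averaged 3.07 at E10, below the filter level, where the size of a difference depends on the floor.

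Among receptors, ERBB4, the neuregulin receptor needed for trabeculation in the mouse, read 7.03 and 6.92 at E10, against 9.50 and 9.44 at E8, a level 5.65-fold lower. ERBB4 was the 1 counted probe set of this list that also stood at least 2-fold lower in the E6 pool of both ventricles, with an E6 pool difference of -1.77, and the part of the kind of pool in it was not tested. FGFR3, a receptor of fibroblast growth factors, averaged 7.12 at E10, against 8.19 at E8, and 1 of its 3 kept probe sets was counted. FGF13, an FGF homologue that stays in the cell and binds sodium channels, was lower in 2 of 3 probe sets, the wider one with 4.27 and 3.80 at E10, against 6.62 and 6.81 at E8. The values of RSPO3, JAG1, BMP2, BMP5 and FGFR3 are given here after they were seen. Members of the list that were not counted stood on both sides of 0. The 3 probe sets of WNT5A, another non-canonical Wnt ligand, differed by -0.94, -0.81 and -0.72, and those of BMP7 by 0.15, 0.17 and 0.53. PDGFB and PDGFRB, a ligand and its receptor on cells that cover vessels, stood 0.68 and 0.71 higher, for PDGFRB in the brighter of its 2 probe sets. In the right ventricle 14 probe sets of the list were lower and 1 higher, beside 2.74% and 0.969% of all kept probe sets, with a median of -0.45.

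**Figure D2:**
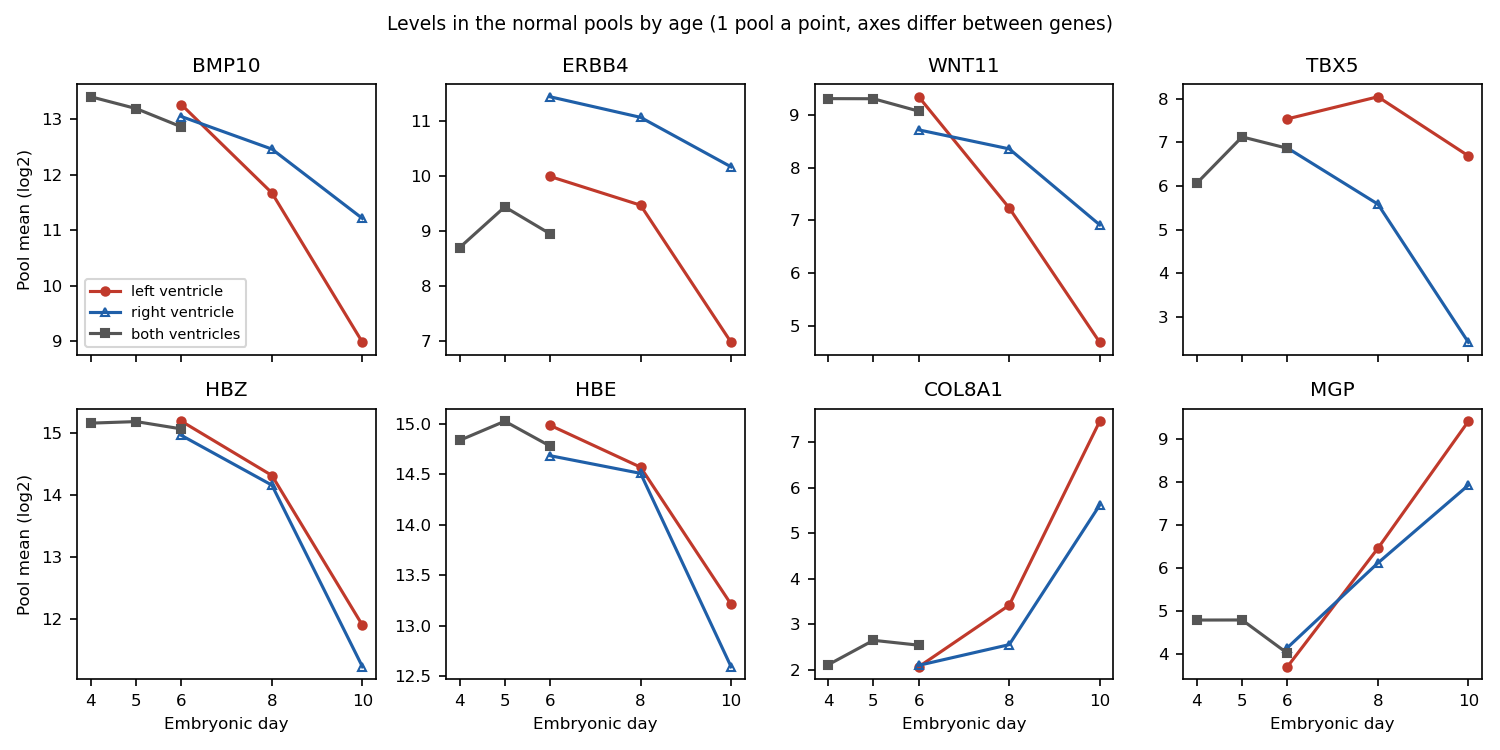
Mean log2 level of the 2 arrays of each normal pool (vertical axis, a separate scale for each gene) against embryonic day, for 4 genes of growth factor and transcription factor lists (top) and for 2 embryonic globins and 2 matrix genes (bottom). Red circles are left ventricle, blue triangles right ventricle and grey squares both ventricles, 1 pool a point, with the less steep of the TBX5 probe sets not drawn. At E10 the left pool stands below the right pool for BMP10, ERBB4 and WNT11 and above it for TBX5, COL8A1 and MGP.

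Of the cardiac transcription factors, TBX5, which patterns the chambers and is mutated in Holt-Oram syndrome, was the only gene counted. Both kept TBX5 probe sets were lower at E10, 2 of 29 in the list, with 6.71 and 6.81 at E10 against 8.04 and 8.02 at E8 for the first and 6.64 and 6.74 at E10 against 7.99 and 8.10 at E8 for the second. The median of the list was -0.12, and 2.23% of all kept probe sets were lower. GATA4, GATA5, GATA6, NKX2-5, MEF2C, HAND2 and IRX4, which all act in heart muscle, differed by -0.24 to 0.25 over their kept probe sets. HEY1, a Notch target, stood 0.52 higher with an E6 pool difference of 1.54.

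The extracellular matrix list held 67 kept probe sets of 28 genes, of which 7 were lower at E10 and 1 was higher (COL8A1), beside 2.23% and 1.23% of all kept probe sets, and the median was -0.09. The lower ones were 3 probe sets of FN1 (fibronectin), 2 of FBN2 (fibrillin of the embryo), 1 of LAMB1 (a laminin chain) and 1 of COL6A1. In each of these genes the brightest probe set was not counted. The widest FN1 probe set read 5.92 and 5.40 at E10, against 8.66 and 8.72 at E8, whereas the brightest averaged 14.15 at E10, against 14.35 at E8. LAMB1 averaged 7.28 at E10 and 8.47 at E8 in the counted probe set, and 13.05 at E10 and 12.86 at E8 in the brighter one. For 4 of the 7 probe sets, those of FN1 and COL6A1, the E6 pool difference lay between -2.49 and -1.41, and its part in them was not tested. Fibrillar and basement membrane collagens were mostly within 2-fold: the brightest probe set of COL1A2 differed by 0.48, and the 5 of COL4A2 by -0.03 to 0.63.

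Genes of the contractile apparatus stayed close to their E8 levels. In the sarcomere list 54 probe sets of 25 genes were kept, 4 were lower at E10 and 0 higher (2.23% and 1.23% over all kept probe sets), and the median was -0.07. All 4 counted probe sets belonged to TTN, the giant spring protein titin, which has 11 kept probe sets. The widest read 5.34 and 5.05 at E10, against 7.89 and 7.72 at E8, while the 2 brightest TTN probe sets averaged 14.71 and 14.77 at E10, against 14.64 and 14.63 at E8. For 3 of the 4 counted TTN probe sets the E6 pool difference lay between -2.52 and -1.38, and its part in them was not tested. Cardiac troponin T (TNNT2) averaged 15.04 at E10 and 15.13 at E8, and alpha-cardiac actin (ACTC1) 15.20 at E10 and 15.27 at E8. These levels lay near the highest value of the data, 16.09, and whether the scale limits differences there was not tested. MYL4, the essential myosin light chain of embryonic and atrial muscle, stood 0.89 lower at E10 and did not reach the 2-fold rule.

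Calcium handling followed the same pattern, with 2 of 30 probe sets of 14 genes lower and 0 higher, beside 2.23% and 1.23% of all kept probe sets, and a median of -0.02. Both counted probe sets were of CACNA1C, the pore of the L-type calcium channel, which has 5. The wider one read 4.49 and 4.47 at E10, against 6.35 and 6.81 at E8, the brightest averaged 9.31 at E10, against 9.68 at E8, and the E6 pool differences of the counted ones were -2.08 and -1.24. Their part in the difference was not tested. CASQ2, calsequestrin, which stores calcium in the sarcoplasmic reticulum, stood 0.33 to 0.77 higher in its 3 probe sets, and RYR2, the release channel, 0.15 and 0.21 higher, none of them counted.

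In the list of ion channels and conduction genes 3 of 16 probe sets were lower and 0 higher, beside 2.23% and 1.23% of all kept probe sets. KCNJ5, a subunit of the acetylcholine-gated potassium channel, was lower in 2 of 3 probe sets, with 5.57 and 4.53 at E10 against 6.27 and 6.07 at E8 in the wider one, and stood 0.74 higher in the third, so that its probe sets disagree. IRX5, a homeobox factor that represses potassium channel genes in the mouse ventricle, read 3.56 and 3.55 at E10, against 4.91 and 4.83 at E8. At E10 this probe set and the other counted one of KCNJ5 lay below the filter level. The size of their differences thus depends on the floor. GJA5, the gap junction protein connexin 40, averaged 13.71 at E10 and 13.87 at E8.

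Metabolic lists held no counted probe set, beside 3.46% of all kept probe sets. For lists of 19 or 20 probe sets, 0 lies near that share. The 19 kept probe sets of fatty acid oxidation had a median of 0.18 and a range of -0.23 to 0.98, with both probe sets of CD36, the fatty acid transporter, at 0.82 and 0.86. The 20 of glycolysis had a median of -0.11, from -0.54 to 0.17, and the 19 of oxidative phosphorylation a median of 0.08, from -0.35 to 0.67. Among 35 probe sets of the cell cycle 1 was counted, near the 3.46% of all kept probe sets. It was CDKN1A, the inhibitor p21, with 7.44 and 7.36 at E10 against 6.13 and 6.38 at E8. MKI67, TOP2A, CDK1 and PLK1, markers of cycling cells, differed by 0.01 to 0.18. CCND1, cyclin D1, stood 0.48 and 0.57 lower, not counted, with E6 pool differences of -1.02 and -0.84. Among the 12 probe sets of natriuretic peptides and stress genes 0 were counted in either direction, also near the 3.46% of all kept probe sets. Of the 12 of retinoid and thyroid signalling, TTR was higher and CYP26B1, which breaks down retinoic acid, was lower, with 5.92 and 5.89 at E10 against 6.70 and 7.37 at E8. Over all kept probe sets 1.23% were higher and 2.23% lower.

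**Figure D3:**
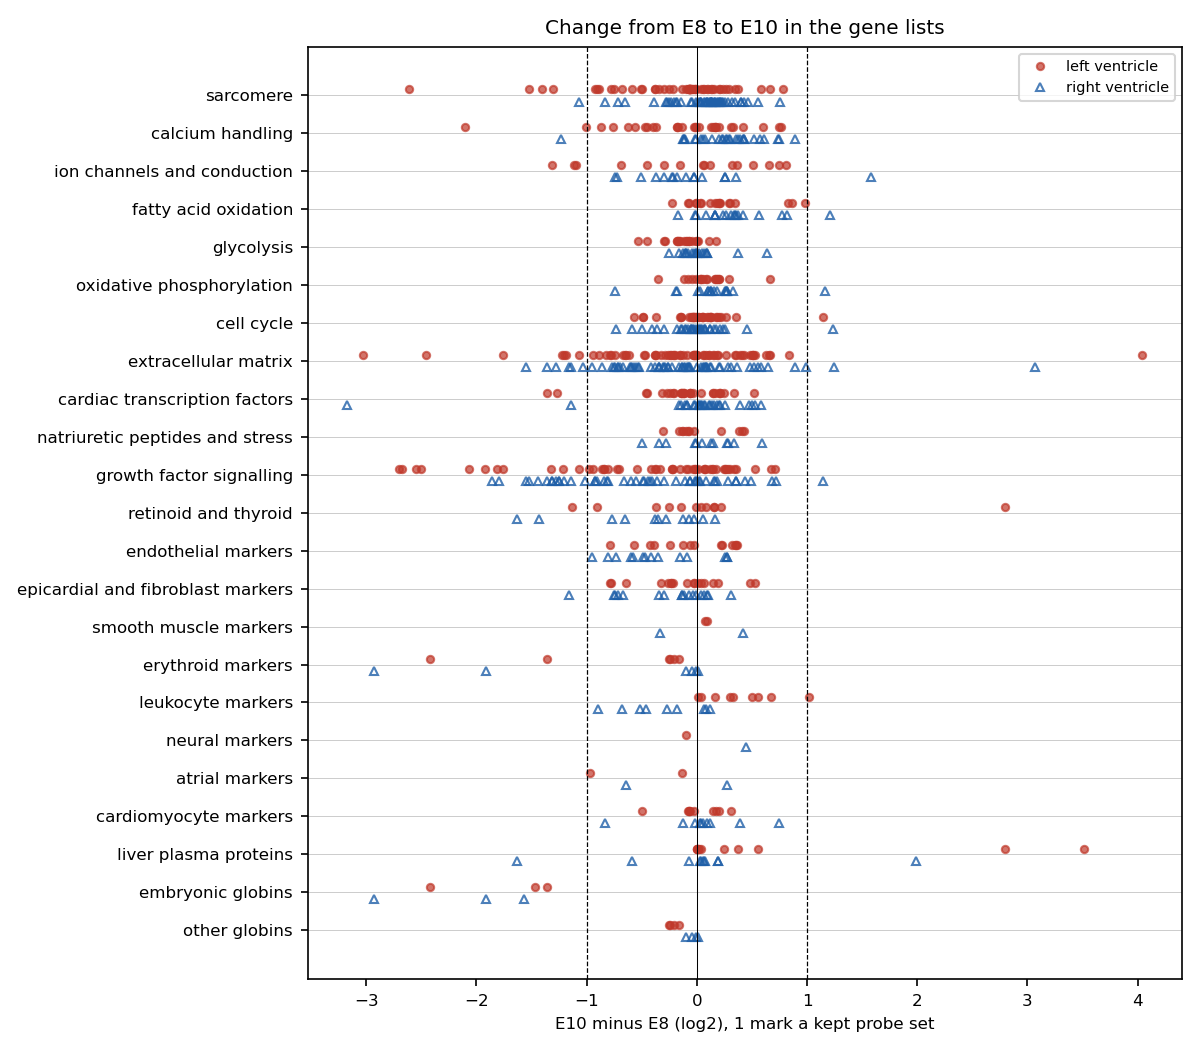
Difference between E10 and E8 (log2, horizontal axis) of every kept probe set of each list, left ventricle in red and right ventricle in blue. Dashed lines mark a 2-fold difference. In the left ventricle most marks lie between the dashed lines, growth factor signalling has 11 marks at or below -1 and none at or above 1, and the metabolic lists have none outside.

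The embryonic globins were lower at E10, while the other globins were not counted. HBZ, the embryonic alpha-type globin, read 11.89 and 11.91 at E10, against 14.30 and 14.32 at E8, a level 5.34-fold lower. HBE and HBBR, embryonic beta-type globins, read 13.18 and 13.24, and 13.50 and 13.48, at E10, against 14.56 and 14.58, and 14.93 and 14.99, at E8. All 3 were counted, and the duplicate arrays differed by less than 0.1. The 4 probe sets of HBAD and HBA1, alpha-type globins that definitive red cells also make, differed by -0.25 to -0.16. They averaged 14.74 to 15.48 in the E10 and E8 left pools, near the highest value of the data, 16.09. Whether the scale limits differences at such levels was not tested. The summed level of the 6 erythroid marker probe sets was 17.12 at E10 and 17.57 at E8. The 3 embryonic globins were also lower in the right ventricle, with differences of -2.93 for HBZ, -1.91 for HBE and -1.57 for HBBR. HBBR and the split into embryonic and other globins were chosen after the values were seen.

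Among the widest increases were 2 genes of plasma proteins. ALB, albumin, read 7.68 and 7.54 at E10, against 3.99 and 4.22 at E8, and TTR, transthyretin, which carries thyroid hormone and retinol-binding protein, read 6.02 and 6.21 at E10, against 3.27 and 3.37 at E8. Liver makes both proteins, and a list of liver plasma proteins was added after these values were seen. It has 22 probe sets of 14 genes on the array, of which 11 of 9 genes were kept. Of the kept ones ALB and TTR were counted, and the other 9, which lay below the filter level at both ages in the left ventricle and were kept through other pools, differed by -0.00 to 0.55, at levels where the size of a difference depends on the floor. FGB and FGG, fibrinogen chains, averaged 4.00 and 3.07 at E10, against 3.45 and 2.69 at E8. FGA, APOB and ITIH2 stayed between 1.83 and 2.75 at both ages. The summed level of the list was 8.36 at E10 and 6.38 at E8 in the left ventricle, and 7.33 at E10 and 6.87 at E8 on the right. Other pools held higher levels: ALB averaged 9.07 in the E6 pool of both ventricles and 11.45 in the left pool after ligation. All 11 kept probe sets had E6 pool differences of 2.70 to 6.05, in part because the filter kept them for it. The APOB probe sets with 2.70 and 5.03 reached the filter level in no pool but the E6 pool of both ventricles. Members of the list below the filter had E6 pool differences of -0.03 to 1.37. In the normal pools of both ventricles at E4 and E5 ALB averaged 4.04 and 3.90. The part of liver RNA in the increases of ALB and TTR was not tested.

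Markers of muscle, vessel and connective tissue cells stood within 2-fold of their E8 levels. The summed level of 10 cardiomyocyte probe sets was 17.48 at E10 and 17.54 at E8, that of 14 endothelial probe sets 14.81 at E10 and 14.62 at E8, and that of 18 epicardial and fibroblast probe sets 16.71 at E10 and 16.65 at E8. None of these probe sets was counted, beside 3.46% of all kept probe sets. For lists of 10 to 18 probe sets, 0 lies near that share. TNNT2, TNNC1, ACTC1 and MYL2, which mark heart muscle, stood at 15.04 or above at both ages, as the labelled tissue requires. The 9 leukocyte probe sets had a summed level of 11.98 at E10 and 11.81 at E8 and lay between 0.01 and 1.01, all at or above their E8 level. Among them 1 was counted, beside 1.23% of all kept probe sets counted higher. It is of the myeloid transcription factor SPI1, with 4.84 and 4.42 at E10 against 3.25 and 3.98 at E8. This probe set averaged 3.61 in the E8 left pool, below the filter level, and 4.63 to 6.79 in the other pools. The second kept probe set of SPI1 differed by 0.56 and was not counted. On the right the leukocyte list had a median of -0.27, with a summed level of 11.84 at E10 and 12.13 at E8. Smooth muscle markers had 2 kept probe sets, at 0.08 and 0.09, and of the neural markers only TUBB3 was kept, at -0.10. Of the atrial markers, NPPA averaged 15.10 at E10 and 15.24 at E8, and NR2F2 4.69 at E10 and 5.66 at E8.

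The right ventricle gave a second measure of the same step from E8 to E10 on arrays of its own. The left and right pools may come from the same hearts, so the right is no independent repeat of the left. In the right ventricle 754 probe sets (3.71%) differed at least 2-fold, 197 higher (0.969%) and 557 lower (2.74%). The 2 ventricles shared 203 probe sets that moved the same way, 63 higher and 140 lower, which is 28.9% of the left list and 26.9% of the right list, and 9 moved in opposite directions. Of the probe sets higher on the left 25.2% were also counted higher on the right, beside 0.969% of all kept probe sets. Of those lower on the left 30.9% were also counted lower there, beside 2.74% of all. Of the 703 probe sets counted on the left, 562 had the same sign on the right. The share of equal signs over all kept probe sets was not counted, so the 562 have nothing to be set against. The 250 that were higher on the left had a median change of 1.32 on the left and 0.50 on the right, and the 453 that were lower had -1.33 on the left and -0.64 on the right. Since these probe sets were chosen for their size on the left, their smaller median on the right is no result. In the other direction, probe sets higher on the right had a median of 0.59 on the left, and those lower on the right -0.58.

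By the mean of the left and right differences, the widest shared increases of named genes were COL8A1, with differences of 4.04 on the left and 3.07 on the right, TXLNB with 3.47 on the left and 2.11 on the right, ALB with 3.51 on the left and 1.99 on the right, and ABCB1 with 3.36 on the left and 1.51 on the right. By the same mean the widest shared decreases were CHODL, CBLN1, LOC107052719 and AQP3. They differed by -4.80, -4.14, -4.75 and -3.33 on the left and by -2.84, -3.25, -2.38 and -3.26 on the right. As given above, LOC107052719 also varied widely among the other pools. BMP10 differed by -2.70 on the left and -1.25 on the right, and WNT11 by -2.55 on the left and -1.44 on the right. For TBX5 the second probe set differed by -1.36 on the left and -3.17 on the right, where it averaged 2.41 at E10.

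The left change minus the right change was at least 1 in size at 833 probe sets (4.1%), with 481 above (2.37%) and 352 below (1.73%). With 1 pool in each of the 4 cells these differences were not tested. The widest above were TTR, FBXO22, CPXM2 and BG8. TTR differed by 2.79 on the left and -1.63 on the right, and CPXM2 by 3.43 on the left and 0.23 on the right. The ranked CPXM2 probe set reached the filter level only in the E10 left pool, so its rank rests on that pool and on the floor. The probe sets of FBXO22, an F-box protein of the ubiquitin system, and of BG8 that are ranked here were not counted on the left, with differences of 0.82 and -0.15 there against -2.98 and -3.36 on the right. Of the other 2 kept probe sets of BG8, 1 was counted on the left, with -1.44 there and -0.11 on the right. The widest below were GKN2, OSCP1, CEP170 and STMN2. GKN2 differed by -5.51 on the left and 1.61 on the right, and OSCP1 by -2.28 on the left and 1.84 on the right, with its second kept probe set at 0.19 on the left and -0.79 on the right. CEP170 differed by -3.46 on the left and 0.38 on the right, and STMN2, a microtubule regulator of neurons, by 0.37 on the left and 4.05 on the right. OSCP1 and CEP170 had E6 pool differences of -1.36 and -1.70, and TTR, STMN2 and FBXO22 of 5.65, 2.51 and 1.22. The ranked probe sets of TTR, CPXM2, FBXO22, GKN2, OSCP1 and STMN2 each lay below 4.09 in at least 1 of the 4 pools. The size of such a difference depends on the floor of the array.

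**Figure D4:**
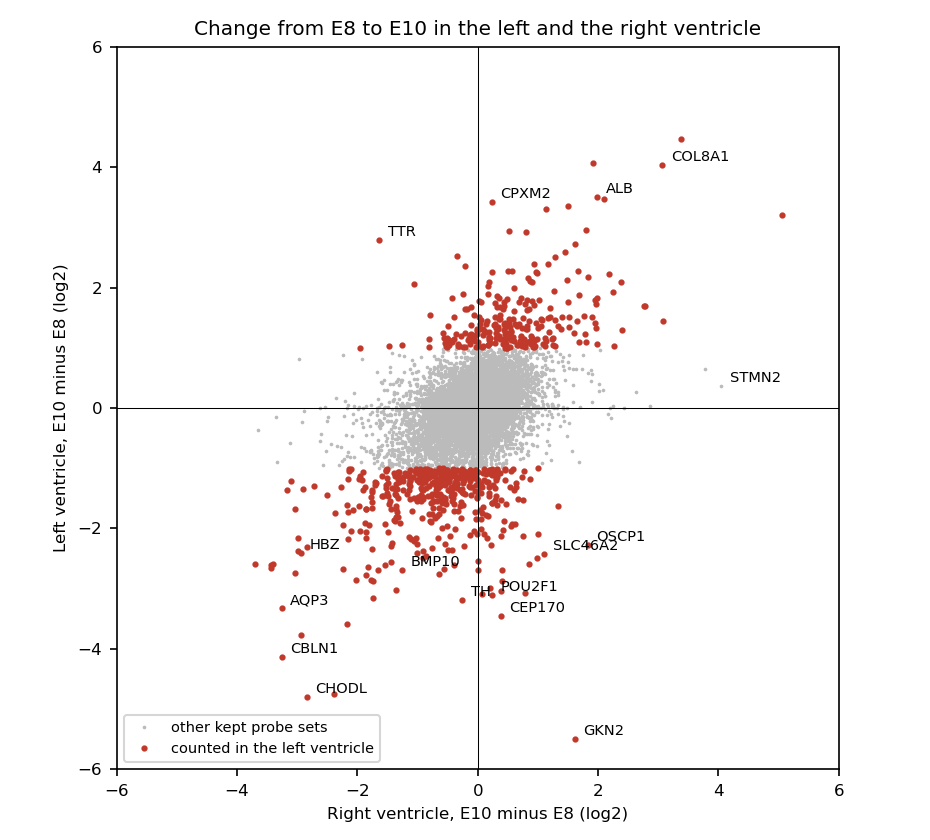
Difference between E10 and E8 in the left ventricle (vertical axis, log2) against that in the right ventricle (horizontal axis, log2) for each of the 20335 kept probe sets. Red points were counted in the left ventricle and some genes are named. Most red points lie at the upper right and the lower left, and GKN2, OSCP1, SLC46A2 and TTR lie away from them.

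Averaged over both ventricles, the step from E8 to E10 could be tested with limma in a fit of the 12 pools. After Benjamini-Hochberg adjustment 19 of 20335 probe sets (0.0934%) passed 0.05, 6 higher (0.0295%) and 13 lower (0.0639%), and all 19 also met the 2-fold rule in either ventricle taken alone. The error of this fit is mostly the unevenness of the left-right difference from condition to condition. The fit thus favours probe sets that moved alike in both ventricles. The rest of the error is the E6 pool difference. The pools at E4 and E5 are each the only one of their age and treatment and give no error. Repeat pools of a condition, of which there were none, do not enter the error. The 19 are named here after their values were seen. Among the increases were both probe sets of FSD2, with limma log2 differences of 2.01 and 1.91 (SE 0.14 and 0.13, adjusted p = 0.0355 for both). The left arrays of the brighter one read 6.07 and 6.49 at E10, against 4.21 and 3.99 at E8. The dimmer one averaged 2.89 in the E8 left pool, below the filter level, where the size of a difference depends on the floor. The other increases were the first of the unnamed probe sets above, PPL (periplakin, a linker of the cytoskeleton), SDR42E2 and MUSTN1, a nuclear protein of developing muscle and bone.

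Among the 13 decreases were the embryonic globins HBZ, with a limma log2 difference of -2.67 (adjusted p = 0.0389), and HBBR, with -1.52 (adjusted p = 0.0355). NRXN3, a presynaptic adhesion protein, read 7.52 and 7.38 on the E10 left arrays, against 9.22 and 9.17 on the E8 left arrays. GAD2, which makes the transmitter GABA, read 5.42 and 5.18 at E10, against 7.10 and 6.89 at E8, and SLITRK4, a synaptic membrane protein, 3.76 and 3.52 at E10, against 5.94 and 6.02 at E8. SCG2, a granin of secretory vesicles, read 4.80 and 4.96 at E10, against 6.25 and 6.35 at E8, while its second kept probe set differed by 0.28 on the left and 0.42 on the right and was not counted. Each of these 4 had a limma adjusted p of 0.0474, as did TPD52L1, CGTL, LOC770936, LOC429785 and 3 unnamed probe sets. In the E10 left pool SLITRK4 and TPD52L1 lay below the filter level. The count was 0 when the 2 ligated pools were left out, 0 without the 4 pools of both ventricles, and 0 with array 1 alone left out of each pool, against 22 with array 2 left out. At an unadjusted p under 0.05, 2031 probe sets passed in the fit of 12 pools.

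The E6 pool difference went with the decreases, and to a smaller share with the increases, in the left ventricle. Of the 453 lower probe sets 151 (33.3%) stood at least 2-fold lower in the E6 pool of both ventricles than in the E6 pools of 1 ventricle, against 29 of the 557 lower on the right (5.21%) and 339 of all 20335 (1.67%). Of the 250 higher probe sets 34 (13.6%) stood at least 2-fold higher in the E6 pool of both ventricles, against 4.06% of those higher on the right and 1.74% of all. Among the left decreases not shared with the right the lower share was 132 of 313 (42.2%), and among the shared ones 19 of 140 (13.6%). The 339 probe sets had a median change of -0.90 in the left ventricle and -0.09 on the right. Across all kept probe sets, the E6 pool difference and the change had a Pearson r of 0.40 on the left and 0.01 on the right, a description across probe sets that share the same few pools. The median level of the 151 was 5.69 in the E10 left pool and 7.34 in the E8 left pool, against 7.42 in the E10 right pool and 7.90 in the E8 right pool. In the pools of both ventricles it was 6.30 at E4, 6.42 at E5 and 6.05 at E6. The 151 were chosen for a lower level in the E10 than in the E8 left pool and in the E6 pool of both ventricles. Their low levels in the E10 left pool and in the E6 pool of both ventricles are therefore no result. The part of the kind of pool in these differences was not tested.

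These probe sets were often dimmer ones of their genes. The 151 name 91 genes, 70 of them with several kept probe sets, and the gene's brightest probe set was also lower in 20 of the 70 (28.6%), with a median change of -0.20. For the other 302 lower probe sets the brightest was also lower in 56 of 125 such genes (44.8%), with a median change of -0.80. Without the probe sets at least 2-fold apart between the kinds of pool at E6, the left count was 510, with 215 higher and 295 lower, and 75 at least 4-fold apart. BMP10, WNT11, RSPO3, BMP2, JAG1, TBX5, the embryonic globins, COL8A1, MGP, CHODL, CBLN1, AQP3 and GKN2 stood within 2-fold between the kinds of pool at E6.

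**Figure D5:**
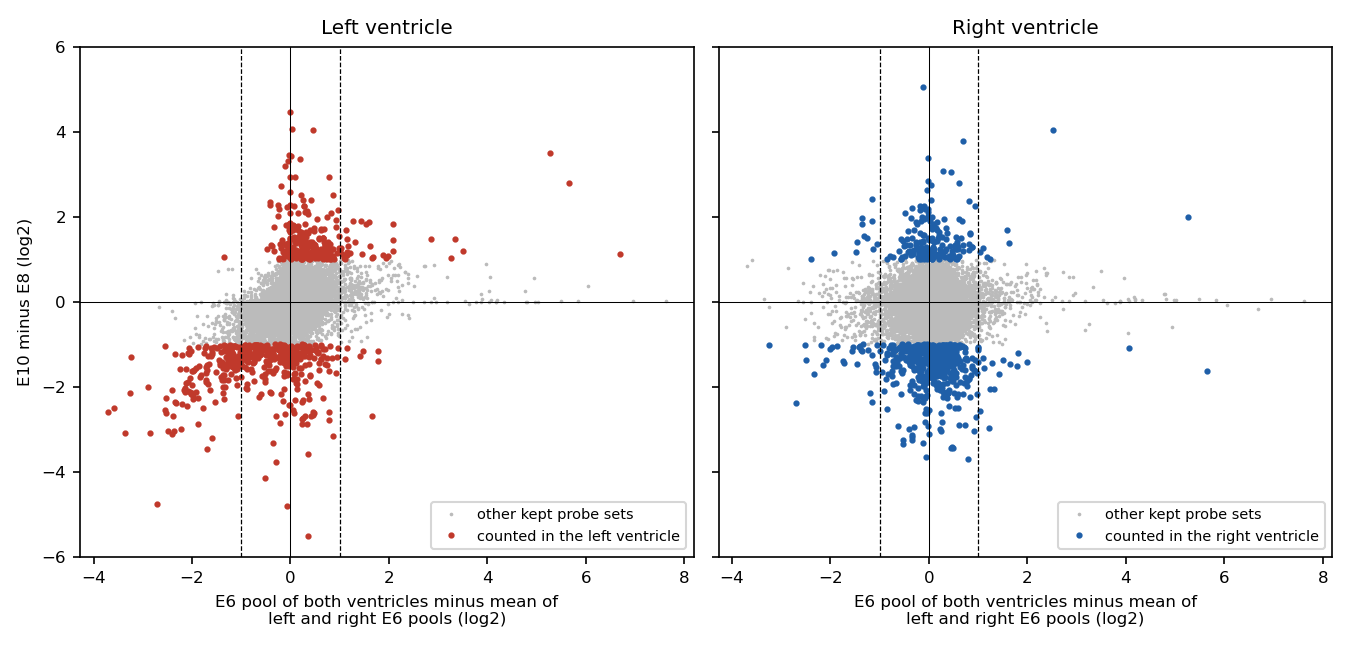
Difference between E10 and E8 (vertical axis, log2) against the E6 pool difference (horizontal axis, log2) for each kept probe set, left ventricle on the left and right ventricle on the right. Coloured points were counted and dashed lines mark a 2-fold E6 pool difference. Left of the dashed line at -1, 151 points were counted lower in the left ventricle and 29 on the right.

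Set against the other ages, the probe sets counted at this step covered a wide range of levels. The 250 higher probe sets had a median level of 7.05 in the E10 left pool and 5.49 in the E8 left pool. Their median was 4.62 in the left pool at E6, and in both ventricles 4.63 at E4, 5.21 at E5 and 5.52 at E6. The 453 lower probe sets had a median of 5.88 in the E10 left pool and 7.34 in the E8 left pool, against 7.67 in the left pool at E6 and 7.24 to 7.39 in the normal pools of both ventricles. The E10 left pool was thus the highest of the 12 pools for the first group and the lowest for the second, in part because the groups were chosen for it. BMP10 stood at 13.27 in the left pool at E6, WNT11 at 9.35, CHODL at 13.10 and AQP3 at 10.50, all above their E8 left levels of 11.67, 7.23, 11.01 and 6.02. MGP stood at 3.71 and COL8A1 at 2.06 in the left pool at E6, below their E8 left levels of 6.46 and 3.42.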

How the data were processed

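RNA of chick embryonic ventricles was measured on one-colour oligonucleotide arrays with biotin-labelled cRNA, 2 technical arrays for each of 12 pools. The values the authors deposited are log2 intensities between 0.14 and 16.09, as read from their range. The submitters' processing notes name GCRMA and MAS5, with neither version nor role. Where GCRMA was used, dim probe sets are drawn towards a common floor. The values were used as deposited, and the 2 arrays of a pool were averaged. The 2 arrays of a pool show technical spread only and give no measure of the spread between pools. The limma test measures only the left-right unevenness and the E6 pool difference, and each condition had 1 pool.

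A probe set was counted when pool means differed by at least 1 (log2) and duplicate arrays did not overlap. For the step over both ventricles, limma 3.58.1 (R 4.3.3; lmFit, eBayes, two-sided) took the 12 pool means with condition as a factor and a number for the side (0.5 left, 0 both, -0.5 right), with 4 residual degrees of freedom and Benjamini-Hochberg adjustment over the kept probe sets. The scripts were tested on simulated data.

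Genes come from GEO's platform annotation, with 27168 probe sets naming 1 gene, 177 several and 11094 unnamed here. Of the first, 26853 matched RefSeq (GRCg7b) by gene ID. Named were the 10 widest genes each way, the 4 widest each way shared with the right, the 4 widest each way in left minus right change, and up to 4 counted members a list each way; 1 gene among the widest increases is not reported here. The members and lists were chosen with earlier results of these data known. Summed levels are the log2 of the sum of linear levels. The alternatives tried were other filters, quantile normalization, median centring, a floor, other fold thresholds, arrays left out and other sets of pools in limma. The E6 pool difference and its exclusion, the liver and globin lists, and 2 limma fits without some pools were added after the data were seen. No columns of values were left out.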

Additional observations from a re-analysis of the deposited data

Results flagged for a closer look

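At 9 probe sets the left and the right ventricle were counted in opposite directions between E8 and E10. The difference between the ventricles was not tested, since each of the 4 conditions is 1 pool. In a first group the level at E10 was higher on the left and lower on the right. TTR differed by 2.79 on the left and -1.63 on the right, with a left change minus right change of 4.43. PTPRN2, a receptor-type phosphatase of secretory granules, differed by 1.0025 on the left and -1.96 on the right (2.96). ADAMTSL3, a matrix protein, differed by 1.03 on the left and -1.47 on the right (2.50), and a probe set unnamed here by 1.05 on the left and -1.25 on the right (2.31). PTPRN2, ADAMTSL3 and the unnamed probe set lie close to the limit of 1 on the left, where PTPRN2 differed by 0.31 without array 2 and ADAMTSL3 by 0.71 without array 1. The second kept probe set of ADAMTSL3 differed by -0.01 on the left and -1.03 on the right.

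The other 5 moved the opposite way, down on the left and up on the right. GKN2 differed by -5.51 on the left and 1.61 on the right, with a left change minus right change of -7.12. OSCP1 differed by -2.28 on the left and 1.84 on the right (-4.11), its second kept probe set by 0.19 on the left and -0.79 on the right, and SLC46A2, a membrane transporter, by -2.43 on the left and 1.10 on the right (-3.53). A second unnamed probe set differed by -2.09 on the left and 1.001 on the right (-3.09), and RIDA by -1.62 on the left and 1.33 on the right (-2.96). The E6 pool difference was -2.40 for the second unnamed probe set, -1.36 for OSCP1, 1.65 for ADAMTSL3 and 5.65 for TTR, and its part in these differences was not tested.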

How the results depend on the processing

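The direction of no named probe set counted in the left was reversed. With an array left out or a floor, the counting rule fixed this in advance. Under median centring it was fixed too, since the array medians lay between 4.03 and 4.15. It is therefore no result under those settings. Of 79 named probe sets counted in the left, all 79 stayed counted under quantile normalization, 78 under median centring, 73 with a floor at 4.09, 75 without array 1 and 69 without array 2. With the filter at the 70th percentile the left count was 335, with 72 higher and 263 lower and 73 at least 4-fold apart, the right count 338, the shared count 112 and the count for left minus right change 314. At 1.5-fold the left count was 2063, with 882 higher and 1181 lower, and at 3-fold 216, with 74 higher and 142 lower. Without probe sets at least 2-fold apart between the kinds of pool at E6, an alternative added after the data were seen, the left ventricle had 295 lower and 75 at least 4-fold apart. The share of higher probe sets among those counted in the left was 35.6%, against 21.5% at the 70th percentile, 39.8% under median centring and 42.2% without those probe sets. The limma count of 19 was 0 with no filter (2854 at an unadjusted p under 0.05), 31 at the 70th percentile, 6 under quantile normalization, 5 under median centring, 35 with a trend of the prior variance and 6 with the robust fit. It was 0 with the 6 normal single-ventricle pools (1731 unadjusted) and 0 with the 9 normal pools (1601). Without the ligated pools it was also 0 (1601), which is the same check. The banded pool left in that setting is the only one of its age and treatment and adds nothing to the error. The count was 0 without the pools of both ventricles (2274) and 0 to 22 without 1 array of each pool. The cause of these shifts was not tested. No paired analysis was possible because array numbers mark technical duplicates of 1 pool, the counts come from no test and limma was run on pool means. With 1 pool a condition, no result separates the age from the pool, and values below 4.09 have no firm order.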
